A study of Mus musculus with 32 samples.

Results

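The 9 genes described here, Cs, Idh3a, Idh3b, Idh3g, Ogdh, Dlst, Suclg1, Fh1 and Mdh2, encode enzymes of the citric acid cycle or their subunits. They were taken by gene symbol from the 55573 genes of an RNA-seq count table of mouse hippocampal neurons, and 8 of the 9 are also among the 5643 RNAs with an editing score from DART-seq, a method that reads m6A (N6-methyladenosine) as C-to-U changes next to the methylated base. Ogdh was selected on its DART-seq scores, because its editing was higher in neurites than in soma. Its soma and neurite scores, and those of the enzymes chosen around it, are therefore given as a description and carry no test.

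The citric acid cycle runs in the mitochondrial matrix, where it oxidizes acetyl groups to CO2 and hands electrons to the respiratory chain, and its enzymes are encoded in the nucleus, translated in the cytosol and imported. Neurons keep mitochondria in axons and dendrites far from the cell body, and mRNAs of nuclear-encoded mitochondrial proteins are known to be present there. Citrate synthase (Cs) opens the cycle, isocitrate dehydrogenase 3 (catalytic subunit Idh3a, regulatory subunits Idh3b and Idh3g) and the 2-oxoglutarate dehydrogenase complex (Ogdh, its E1 subunit, and Dlst, its E2 subunit) carry out oxidative decarboxylations, and succinate-CoA ligase (alpha subunit Suclg1), fumarase (Fh1) and malate dehydrogenase (Mdh2) complete the turn. The m6A mark is placed on mRNA by a complex whose catalytic subunit is METTL3.

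Primary neurons from neonatal mice, pooled within a litter, were grown for 15 days on porous membrane inserts, and soma were scraped from the top and neurites from the bottom of the membrane. WT neurons were C57BL/6, and Mettl3 KO neurons (genotype Mettl3-/-) came from Mettl3Flox/Flox mice, so that strain and genotype cannot be told apart. Neurons of both genotypes were transduced at DIV7 with an AAV for Cre-P2A-dTomato (50000 viral genomes per cell) whose hSyn promoter is active in neurons. Whether other cells of the Mettl3 KO cultures kept the floxed gene was not measured here. All were silenced at DIV14 over 16 h with tetrodotoxin (1 µM) and D-AP5 (50 µM), and the KCl groups then received KCl, which depolarizes the membrane, at 55 mM over 2 h, while the Ctrl groups did not. Each of the 8 groups of genotype, compartment and treatment held 2 RNA-seq libraries from 50 ng of total RNA, and the 16 DART-seq libraries of the same groups were available only as averages. Per the study's methods, the soma fraction was not free of neurites.

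The 16 RNA-seq libraries held 33789183 to 71394235 counts. Mettl3 measured 13.5 to 16.7 CPM (counts scaled to library size, by TMM over the 16 libraries) in WT soma and 6.18 to 11.0 in Mettl3 KO soma, and 9.04 to 12.4 in WT neurites against 3.91 to 8.23 in Mettl3 KO neurites, so that it was lower in every Mettl3 KO library than in any WT library of the same compartment. The log2 ratio between the 2 replicates of a group had an SD of 0.167 to 0.363 over 15170 genes in WT and of 0.504 to 1.33 in Mettl3 KO. KCl-treated Mettl3 KO insert 1 stood apart: its 8 markers of the oligodendrocyte lineage summed to 4576 CPM in soma and 9342 in neurites, against 72.4 to 235 in the other 14 libraries, and its 8 astrocyte markers to 9487 and 18617 against 1007 to 5966. Its microglial markers summed to 405 and 296 against 11.9 to 57.6, and its fibroblast and vascular markers to 111 and 713 against 11.1 to 79.2. Its 10 neuronal markers were low, at 2043 and 1123 against 3276 to 6355. In WT Ctrl the 10 neuronal markers summed to 3811 to 4011 CPM in soma and 5053 to 5889 in neurites, and the 8 astrocyte markers to 1007 to 1026 and 1807 to 2745. edgeR called 4 of the 8 astrocyte markers higher in neurites and 0 lower, beside 9.01% and 4.54% of all genes. It also called higher 4 of the 7 fibroblast and vascular markers tested, 2 of 7 microglial and 2 of 8 oligodendrocyte lineage markers, and 0 lower. Those lists summed to 28.9 to 79.2, 22.3 to 29.7 and 138.0 to 138.4 CPM in neurites. Of the 10 neuronal markers 2 were called higher (Map2 and Nefl) and 1 lower (Nefm), with a median log2 change of 0.04. Most of the higher neuronal sum was Map2, at 447 to 463 CPM in soma and 1381 to 1847 in neurites. In these bulk libraries, fewer cells of a type and less RNA per cell cannot be told apart.

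The deposited DART-seq list holds 43 sites in 8 of the 9 genes, among 18231 sites in all. Every site is a C that follows an A in the RAC consensus (R is A or G) of m6A. Per the study's methods, only sites in that motif were kept. Ogdh held 11 sites, Dlst 10, Idh3a 8, Cs and Fh1 5 each, Idh3b 2, and Idh3g and Suclg1 1 each. Mdh2, the dehydrogenase that closes the cycle, is not in the score table or the site list. The 5 Ogdh sites with an average C-to-U fraction above 5% are shown because they carried most of the editing of the RNA that was picked for it. Each line gives the GRCm38 position of the edited C and 10 bases of the spliced mRNA on either side of it, 5′ to 3′, with the RAC triplet in capitals; the last capital is the edited base.

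Ogdh exon 12 (CDS, chr11 position 6347110, + strand): gtgttatcGACgaaatggcca
Ogdh exon 23 (CDS, chr11 position 6355613, + strand): acacacctGACagagctgcag
Ogdh exon 21 (CDS, chr11 position 6354997, + strand): agtcaagaGACttctcttctg
Ogdh exon 15 (CDS, chr11 position 6348713, + strand): ggactgtgGACtgggccctgg
Ogdh exon 23 (3′UTR, chr11 position 6356593, + strand): aaaagaacAACcacctttgca

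Their C-to-U fraction was 10.5% in exon 12, 10.2% and 9.19% in the coding part of exon 23 and in exon 21, 6.57% in exon 15 and 5.19% in the 3′UTR. From the study's methods, these values were taken as the authors' average over WT libraries. The number of libraries behind each is not given. The other 6 Ogdh sites ranged from 1.95% to 4.61%. Of the 18231 sites in the list, 91.8% had a lower value than the exon 12 site. Across the 23 exons of the Ogdh mRNA (transcript Ogdh-201, 4127 nt), the site nearest to the 5′ end lay at position 1250, in exon 9, and the last at position 4078. A match to GGAC, the most frequent core of the m6A consensus, was present at 1 of the 11 sites, in exon 15.

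The most edited site of each of the 7 other genes is shown in the same way, to set beside those of Ogdh.

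Idh3g exon 6 (CDS, chrX position 73781163, - strand): aatctcgaAACaacatccttc
Dlst exon 15 (3′UTR, chr12 position 85133188, + strand): cacactctGACttgatgccac
Fh1 exon 10 (CDS, chr1 position 175601559, - strand): tagggtatGACaaagcagcaa
Idh3b exon 4 (CDS, chr2 position 130283725, - strand): tgaaggagAACaaagttgcca
Cs exon 6 (CDS, chr10 position 128353151, + strand): cagccctcAACagtgaaagca
Idh3a exon 8 (CDS, chr9 position 54598655, + strand): tatacggaGACatccttagtg
Suclg1 exon 4 (CDS, chr6 position 73264002, + strand): tcgggccaAACtgccccggcg

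The single site of Idh3g reached 7.44%, the strongest of Dlst 6.58%, of Fh1 6.17%, of Idh3b 4.57%, of Cs 2.98% and of Idh3a 2.29%, and the single site of Suclg1 1.94%. Dlst had a 2nd site above 5%, at 6.32% in exon 9. Over the 43 sites, 33 (76.7%) lay in coding sequence and 10 (23.3%) in 3′UTRs, beside 58.9% and 30.5% of all 18231 sites. GAC made up 18 of the 43 (41.9%) and AAC 25 (58.1%), beside 53.7% and 46.3% of all sites, and GGAC 3 of 43 (6.98%), beside 16.2%. The 43 sites sit in 8 RNAs and are not independent of each other. Relative to mRNA length, Dlst had 3.62 sites per kb, Idh3a 3.33 and Ogdh 2.67, so Ogdh had the most sites but not the densest.

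**Figure D1:**
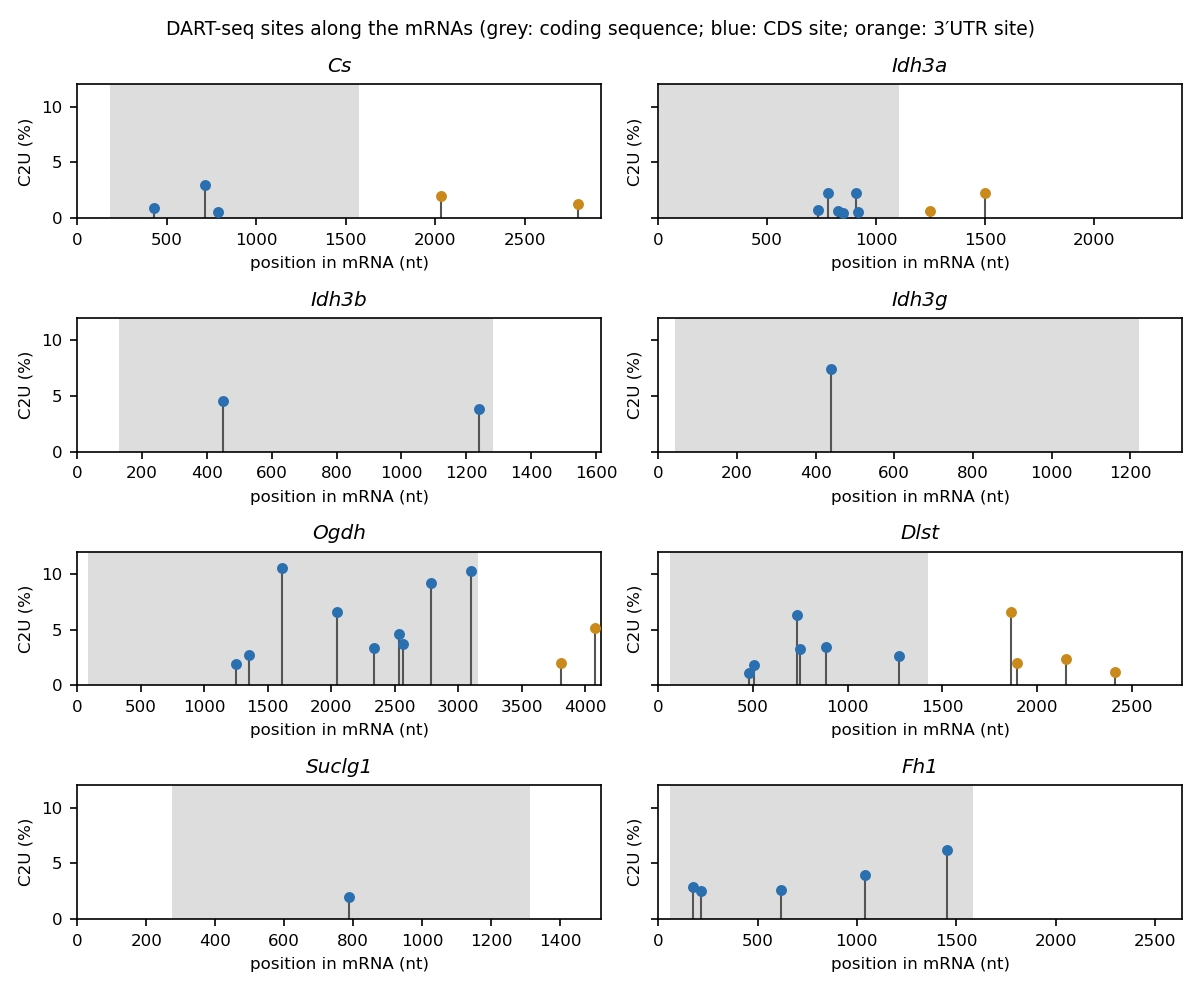
C-to-U fraction (%, y axis, taken as the authors' average over WT DART-seq libraries) of each called site against its position in the mRNA (nt, x axis) for the 8 genes with sites. The shaded span is the coding sequence, blue points are sites in it and orange points are 3′UTR sites; 3 Ogdh sites lie above 9%, and no site of another gene does.

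The editing score of an RNA is described by the authors as the C-to-U fraction summed over its called sites. In several genes the fractions in the site list do not add up to the deposited WT score, since they sum to 0.601 for Ogdh, 0.307 for Dlst, 0.0990 for Idh3a and 0.0773 for Cs, which is above the score in each, and to 0.0842 for Idh3b, which is below it. The sum of Dlst was also above its soma score of 0.198 and its neurite score of 0.298. Fractions and scores are therefore not plain averages of the same values. The cause was not tested. In WT, the score of Ogdh was 0.558, which was rank 102 of 5643 RNAs, and was followed by Dlst with 0.244 and Fh1 with 0.181. The scores of Idh3b, Idh3a, Idh3g, Cs and Suclg1 were 0.0868, 0.0843, 0.0744, 0.0635 and 0.0194, beside a median of 0.103 over all 5643 RNAs. Divided by the number of sites, the Ogdh score was 0.0507, and 64.7% of RNAs had a lower value. By number of sites, 97.5% of RNAs had fewer than the 11 of Ogdh. Idh3g, with 1 site, had the highest score per site of these genes (0.0744), and Idh3a, with 8 sites, the lowest (0.0105).

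By compartment, the mean score of Ogdh was 0.399 in WT soma and 0.752 in WT neurites, a ratio of 1.88, each averaged by the authors over 4 libraries without and with KCl. Idh3b measured 0.0585 and 0.111 (ratio 1.90), Idh3a 0.0642 and 0.117 (1.82), Cs 0.0496 and 0.0795 (1.60) and Dlst 0.198 and 0.298 (1.501). The ratio of Fh1 was 1.45 (0.151 and 0.220), of Idh3g 1.21 (0.0663 and 0.0805) and of Suclg1 1.13 (0.0185 and 0.0208). The neurite score was the higher in 8 of 8 genes, beside 68.8% of all 5643 RNAs and 87.5% of the 423 RNAs with 8 sites or more. Ogdh, Dlst and Idh3a have that many sites. This count and the counts by fold include Ogdh, which was picked for this direction. At 1.5-fold or more, 5 of 8 were higher in neurites, beside 40.8% of the 5423 RNAs with both scores above 0, and at 2-fold or more 0 of 8, beside 22.2%. None of the 8 was lower in neurites at 1.5-fold or 2-fold, beside 13.1% and 7.23%. By ratio, 74.7% of RNAs were below Ogdh, and 85.1% of the 423 RNAs with 8 sites or more. As a difference, the 0.353 of Ogdh was above that of 99.4% of RNAs. Values of single DART-seq libraries were not used here, so the spread behind these averages is unknown, and so is the read depth.

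In Mettl3 KO, the score of Ogdh was 0.213, of Dlst 0.0787 and of Fh1 0.0760, and the other 5 ranged from 0.00886 to 0.0428. The WT score exceeded it 2.03-fold (Idh3b) to 3.94-fold (Idh3a), with 2.61-fold for Ogdh and 3.10-fold as the median of all RNAs. A minimal excess over Mettl3 KO was part of the authors' site calling, so these ratios are no independent measure of m6A.

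**Figure D2:**
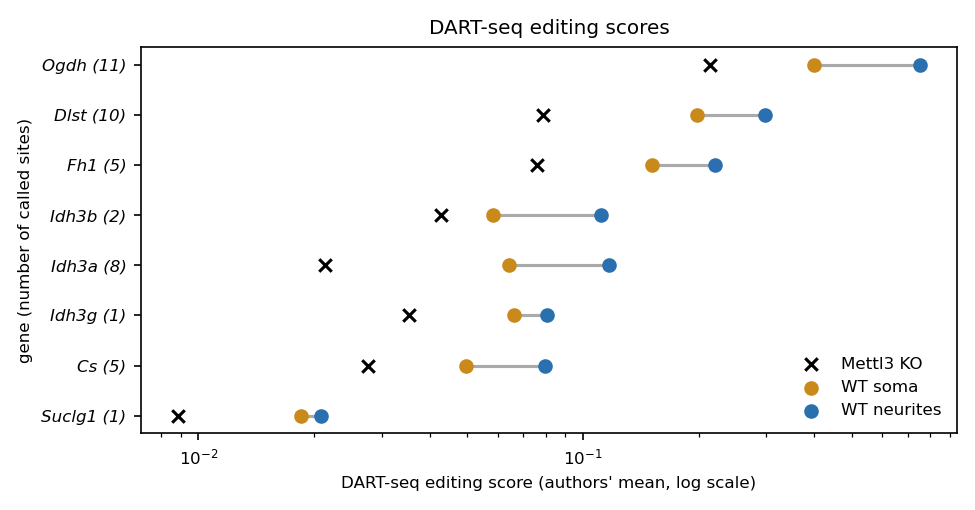
DART-seq editing score (x axis, log scale, the authors' mean over libraries, no replicate error) of the 8 genes with sites (y axis, number of sites in brackets) in WT soma, WT neurites and Mettl3 KO. In every gene the neurite point lies to the right of the soma point and both lie to the right of the Mettl3 KO point; the gap between compartments runs from 1.13-fold in Suclg1 to 1.90-fold in Idh3b.

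The mRNA levels were then examined, to see whether the RNAs themselves were unequal between compartments. Between genes, levels were compared per length, as FPKM (CPM per kb of exon). In WT Ctrl soma, Mdh2 was highest with 190.2 ± 6.7 FPKM, followed by Idh3a with 55.9 ± 3.3, Idh3b with 43.2 ± 3.2, Idh3g with 40.2 ± 2.3, Cs with 38.2 ± 1.7 and Ogdh with 37.5 ± 2.4 (SD, n = 2). Fh1 followed with 22.4 ± 0.33 and Suclg1 with 21.4 ± 0.35, and Dlst was lowest with 6.71 ± 0.088. Neighbours from Idh3b to Ogdh in this order differed by less than the sum of their SDs. The exon length of Dlst in the count table is 9559 bases, against 2764 for its main transcript, so its level per length is low in part through that length. The other members also have more exon bases than their main transcript, by unequal amounts. Suclg1 has 4617 against 1519, Mdh2 3562 against 1456, Idh3g 2701 against 1331 and Ogdh 5456 against 4127. The order of levels between genes therefore depends in part on the length used. Among 23335 genes, the level of Mdh2 was above 98.9%, that of Ogdh above 93.0% and that of Dlst above 71.7%.

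**Figure D3:**
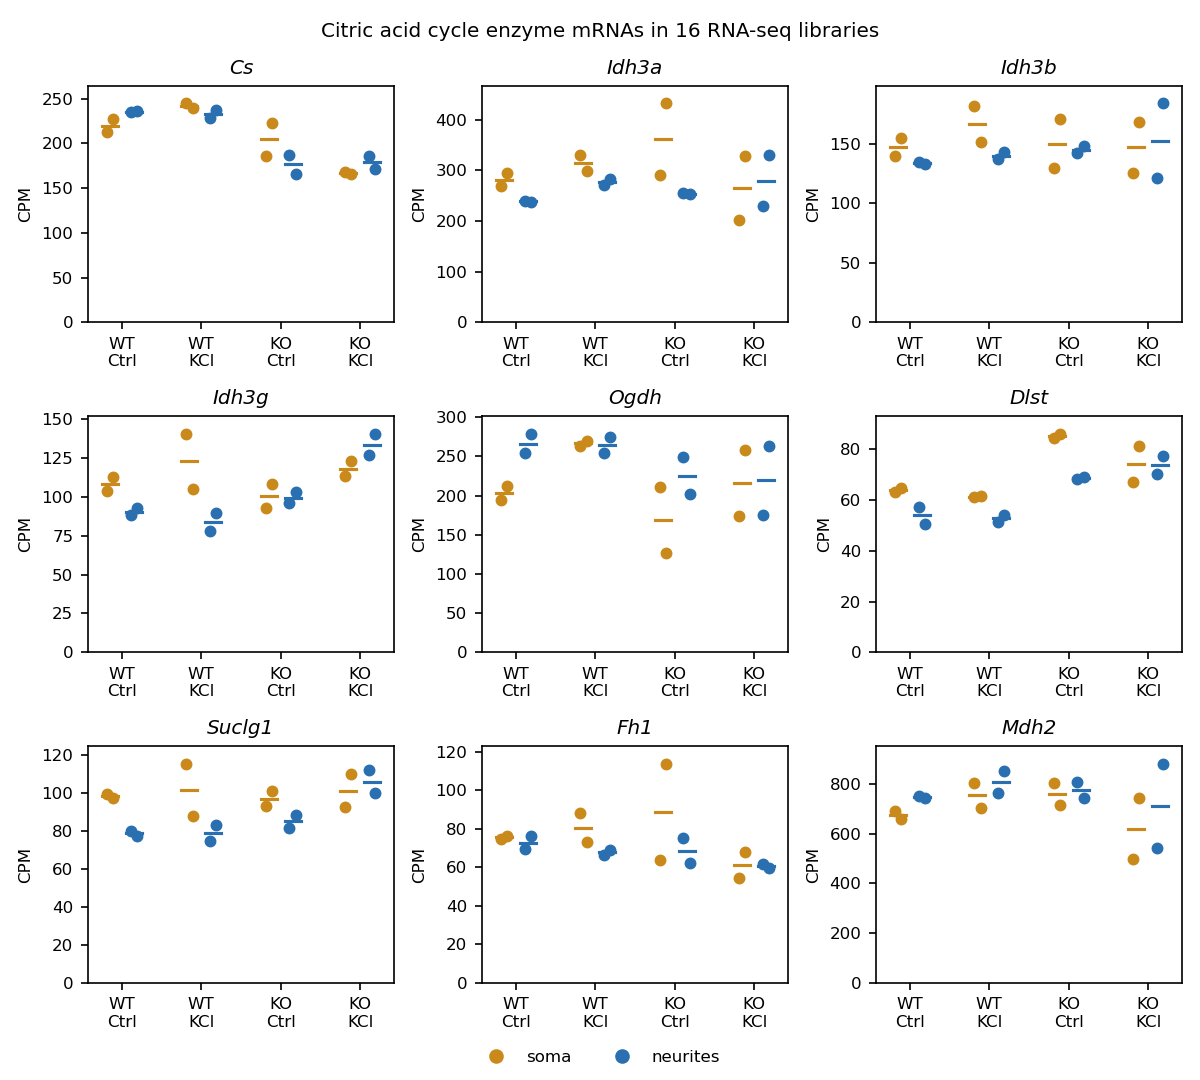
Level of each of the 9 mRNAs in every RNA-seq library (y axis, CPM with TMM scaling over the 16 libraries, from 0), by genotype and treatment (x axis); a point is a library and a dash the mean of 2. Ogdh is higher in both WT Ctrl neurite libraries than in both soma libraries, and for Idh3a, Ogdh and Fh1 the Mettl3 KO Ctrl soma pair lies wider apart than the WT Ctrl soma pair.

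In untreated WT neurons, Ogdh had the highest neurite over soma ratio of the 9 mRNAs and 6 had a ratio below 1. None met both limits of a call, in fold and in adjusted p. Ogdh measured 195 and 214 CPM (TMM over the 8 WT libraries) in soma and 239.6 and 263 in neurites. Both neurite libraries were above both soma libraries. The log2 change was 0.30 (standard error, SE, 0.11, 95% interval 0.06 to 0.53), at an adjusted p of 0.0779 in edgeR's quasi-likelihood test. A call needed 1.5-fold, with a p adjusted by Benjamini and Hochberg's method no higher than 0.05. Of 23200 genes tested, 9.01% were called higher and 4.54% lower in neurites (13.6% in all). Of the 9, 0 were called by edgeR in either direction, or by DESeq2. At an unadjusted edgeR p of at most 0.05 without regard to fold, 1 of the 9 was higher and 4 were lower. The share of all genes under that looser rule is not given here, so this count has no background.

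Dlst, which works with Ogdh in the same complex, lay on the other side: 63.6 and 64.8 CPM in soma and 54.1 and 47.5 in neurites, a log2 change of −0.34 (SE 0.11, adjusted p = 0.0521 in edgeR). Both of its neurite libraries were below both soma libraries. The ratio of Ogdh to Dlst counts within a library, which needs no scaling, was 3.07 and 3.30 in WT Ctrl soma and 4.43 and 5.53 in neurites. This ratio was chosen after the values were seen.

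The 3 subunits of isocitrate dehydrogenase 3 were each lower in both neurite libraries than in both soma libraries. Idh3a measured 272 and 295 CPM in soma and 227 and 224 in neurites, with a log2 change of −0.33 (standard error 0.10) at an edgeR adjusted p of 0.0440, which is below 0.05, but its 1.26-fold difference was under the 1.5-fold threshold. Idh3g measured 104 and 113 against 83.4 and 87.1 (log2 −0.35, SE 0.14, adjusted p = 0.102 in edgeR), and Idh3b 140.1 and 155 against 127 and 125 (log2 −0.23, SE 0.11, adjusted p = 0.178 in edgeR). There were 1.90 to 1.94 Idh3a counts per Idh3b count in soma and 1.78 to 1.80 in neurites.

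Of the later enzymes, Suclg1 had the lowest ratio of the 9, with 99.7 and 97.5 CPM in soma and 75.4 and 72.8 in neurites. Its log2 change was −0.41 (standard error 0.13) at an edgeR adjusted p of 0.0471, and the 1.33-fold difference was again under 1.5-fold. Fh1 (log2 −0.15), Cs (0.01) and Mdh2 (0.06) had edgeR adjusted p of 0.395, 0.973 and 0.731, with 95% intervals inside ±0.41. The median over the 9 was −0.23, beside −0.10 over all 23200 genes.

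**Figure D4:**
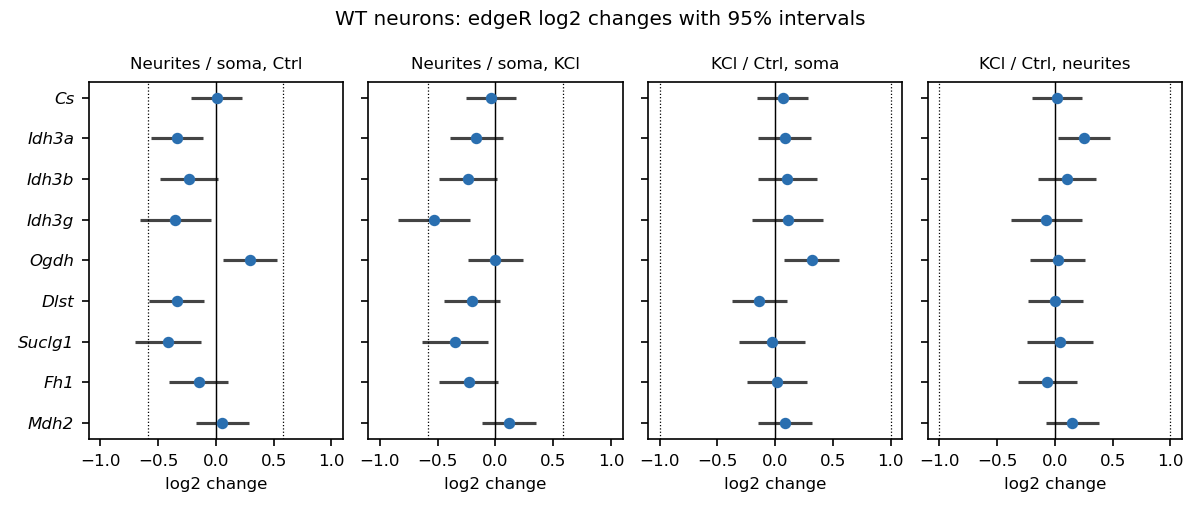
edgeR log2 changes (x axis) of the 9 mRNAs (y axis) in WT neurons, with 95% confidence intervals, for neurites over soma without and with KCl and for KCl over Ctrl in soma and in neurites (8 libraries in the fit). Dotted lines mark the 1.5-fold or 2-fold threshold of the comparison, which no point reaches.

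After KCl, WT soma and neurites held Ogdh at like levels. It measured 249 and 260.2 CPM in soma and 247 and 262 in neurites, with ranges that overlapped. The log2 change was −0.00 (95% interval −0.24 to 0.24). Idh3g then had the largest difference, with 132 and 101 CPM in soma and 75.9 and 85.7 in neurites (log2 −0.53, standard error 0.14), at an edgeR adjusted p of 0.0306 but 1.45-fold. The 2 soma libraries of Idh3g were far apart: without WT soma KCl replicate 2 the log2 change was −0.72, past both thresholds at an adjusted p of 0.00229. Suclg1 followed at −0.35 (edgeR adjusted p = 0.105), and the other 6 ranged from −0.24 to 0.12. By edgeR and by DESeq2 0 of the 9 were called, beside 6.87% of 23028 genes higher and 2.73% lower in neurites by edgeR (9.6% in all). At an unadjusted edgeR p of at most 0.05, whatever the fold, it was 2, both lower, again without a share of all genes.

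In soma, Ogdh was the mRNA of the 9 with the largest difference between KCl and Ctrl. Its 2 KCl soma libraries, at 249 and 260.2 CPM, were above the 2 Ctrl soma libraries, at 195 and 214. The log2 change was 0.32 (standard error 0.11, 95% interval 0.08 to 0.55) at an edgeR adjusted p of 0.0801. In neurites the same comparison gave 247 and 262 CPM against 239.6 and 263, with a log2 change of 0.03. The other 8 mRNAs ranged from −0.14 to 0.11 in soma. In neurites, Idh3a had the largest value, 0.25 (264 and 271 CPM after KCl against 227 and 224, edgeR adjusted p = 0.164), and the rest ranged from −0.07 to 0.15.

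The KCl response was called at 2-fold, and 0 of the 9 were called by edgeR or DESeq2 in soma or neurites. At an unadjusted edgeR p of at most 0.05, whatever the fold, 1 of the 9 was higher in each compartment, Ogdh in soma and Idh3a in neurites. The share of all genes at that p is not given here, and the shares that follow are of the 2-fold call. Among all genes, edgeR called 3.74% of 24060 higher and 2.96% lower in soma (6.7% in all), and 3.33% and 1.7% of 22059 in neurites (5.03% in all). The 95% intervals of the 9 lay between −0.38 and 0.55 in soma and between −0.38 and 0.48 in neurites, so a 2-fold response was outside all of them. Astrocyte markers summed to 1461 to 1499 CPM in the KCl soma libraries, against 1007 to 1026 in Ctrl, and neuronal markers to 5263 to 5426 against 3811 to 4011. Of the 8 astrocyte and 10 neuronal markers, 1 each was called higher and 0 lower. The neuronal one was Nefl, at 1102 to 1230 CPM after KCl and 377 to 387 in Ctrl. Of the 10 neuronal markers 6 had a log2 change above 0. Slc17a7 was lower after KCl (96.1 to 117 against 175 to 187), as was Rbfox3 (155 to 185 against 198 to 199). The part of these markers in the difference of Ogdh was not tested.

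Whether KCl changed the neurite over soma ratio itself was tested in a model with a term for each insert. The log2 neurite over soma ratio of Ogdh was 0.30 in each of the 2 Ctrl inserts and −0.01 and 0.01 in the KCl inserts. The fitted change was −0.30 (95% interval −0.68 to 0.09), at an unadjusted p of 0.119 in edgeR. None of the 9 reached the threshold here, 1.5-fold with p unadjusted and no higher than 0.05 in edgeR, which 2% of 23200 genes passed upwards and 1.35% downwards (3.36% in all). The other 8 ranged from −0.17 to 0.17.

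**Figure D5:**
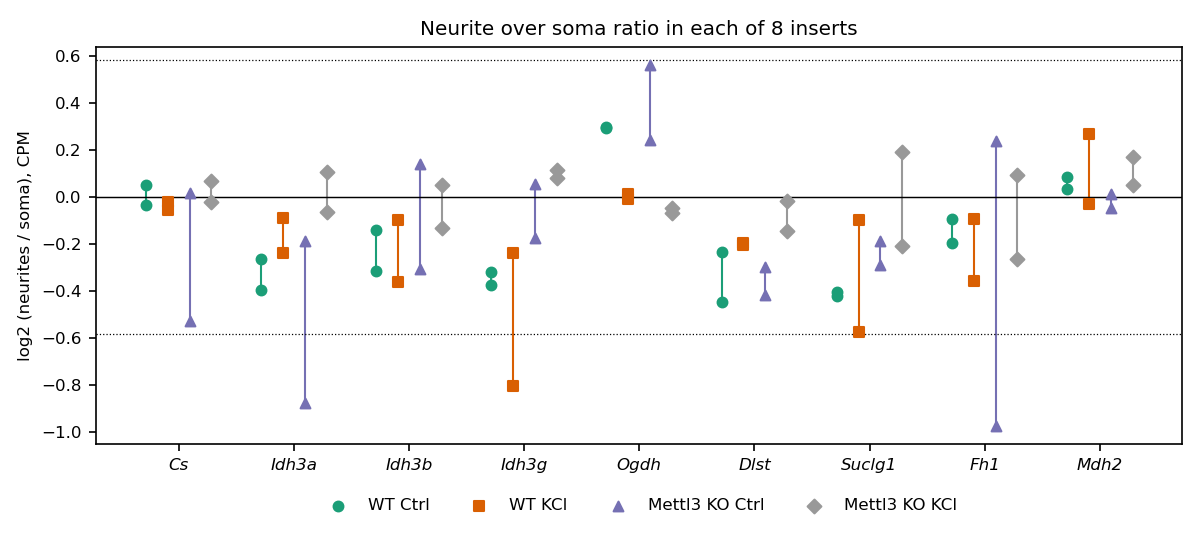
log2 ratio of neurite to soma CPM (y axis, TMM scaling within a genotype) of the 9 mRNAs (x axis) in each of 8 inserts, taken as the pair of soma and neurite libraries that carry 1 replicate number; a line joins the 2 inserts of a condition and dotted lines mark 1.5-fold. For Ogdh the WT Ctrl inserts lie at 0.30 and the WT KCl inserts at −0.01 and 0.01, and the Mettl3 KO Ctrl inserts of Fh1 and Idh3a lie far apart.

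In Mettl3 KO neurons, no level of the 9 mRNAs was called different from WT, and the spread between the Mettl3 KO replicates was wide. Scaled over the 16 libraries, Dlst measured 84.1 and 85.9 CPM in Mettl3 KO Ctrl soma against 63.2 and 64.5 in WT, and 68.1 and 69.0 in Mettl3 KO Ctrl neurites against 57.2 and 50.4 in WT. In both compartments the Mettl3 KO libraries were above the WT libraries. The log2 changes were 0.41 (SE 0.19, adjusted p = 0.566 in edgeR) in soma and 0.35 (SE 0.18, adjusted p = 0.744 in edgeR) in neurites. Dlst was the member with the smallest p in soma. The 8 astrocyte markers summed to 1676 to 2240 CPM in Mettl3 KO Ctrl soma against 1007 to 1026 in WT Ctrl soma. In neurites they summed to 2631 to 5966 against 1807 to 2745. The 10 neuronal markers summed to 3276 to 4370 against 3811 to 4011 in soma, and to 3444 to 3998 against 5053 to 5889 in neurites. The part of these markers in the differences between genotypes was not tested.

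Ogdh measured 211 and 127 CPM in Mettl3 KO Ctrl soma against 194 and 213 in WT, and 249 and 202 in neurites against 254 and 279. The soma ranges overlapped and the neurite ranges did not. The log2 changes were −0.26 (95% interval −0.92 to 0.39) and −0.24 (−0.89 to 0.41). Cs had the smallest p in neurites, with 187 and 166 CPM against 235 and 236 in WT, a log2 change of −0.41 (SE 0.20, adjusted p = 0.709 in edgeR). The other 7 ranged from −0.11 to 0.36 in soma, and the other 6 from −0.09 to 0.14 in neurites. By edgeR, 0.0632% of 23750 genes were called higher and 0.122% lower in soma, and 0.0642% and 0.124% of 21814 in neurites. Of the 9, 0 were called. At an unadjusted edgeR p of at most 0.05 it was 0 of 9 in each compartment, without a share of all genes at that p.

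The Ogdh to Dlst count ratio was 2.51 and 1.48 in Mettl3 KO Ctrl soma and 3.65 and 2.92 in neurites, and after KCl 2.59 and 3.18 in soma and 2.50 and 3.41 in neurites. In WT after KCl it was 4.32 and 4.40 in soma and 4.96 and 5.08 in neurites. In each of the 4 pairs of groups with the same compartment and treatment, both Mettl3 KO libraries were below both WT libraries. In 7 of the 8 inserts the ratio was higher in neurites than in soma. KCl-treated Mettl3 KO insert 1, with its high glial and low neuronal markers, was the exception. These values are a description of a ratio picked after the data were seen.

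Within Mettl3 KO, Ogdh measured 220 and 142 CPM (TMM over the 8 Mettl3 KO libraries) in Ctrl soma and 259.9 and 210.2 in neurites, and was higher in neurites in both inserts. The ranges of the compartments overlapped. The log2 change was 0.37 (95% interval −0.61 to 1.36), and after KCl it was −0.05 (−1.07 to 0.96). In edgeR 0% of genes were called in either direction in both comparisons, of 22557 and 23152 tested, and DESeq2 called 12 higher and 5 lower in Ctrl and 0 after KCl; in edgeR at an unadjusted p of at most 0.05 and 1.5-fold there were 883 higher and 356 lower in Ctrl, and 13 and 119 after KCl. The other 8 members ranged from −0.57 (Idh3a) to −0.02 (Mdh2) in Ctrl and from −0.10 to 0.12 after KCl. These intervals are wide enough to hold a 1.5-fold change in either direction for Ogdh.

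The Mettl3 KO change in the neurite over soma ratio of untreated neurons was 0.06 on the log2 scale for Ogdh (95% interval −0.55 to 0.67, edgeR adjusted p = 0.992). None of the 9 passed the same threshold in edgeR, which 2.91% of 22942 genes passed upwards and 1.28% downwards (4.19% in all). Fh1 had a change of −0.27 (edgeR adjusted p = 0.980), and its log2 ratio was 0.24 and −0.97 in the 2 Mettl3 KO inserts; without Mettl3 KO Ctrl insert 1 its change was −0.82 and past the threshold, the only one of the 9, and without insert 2 it was 0.35.

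Genes next to these in the pathway were read from lists of other citric acid cycle enzymes, 7 genes of pyruvate entry, 7 regulators of pyruvate dehydrogenase and 10 cytosolic counterparts and carriers. In WT Ctrl, 1 of the 7 genes of pyruvate entry was called higher in neurites and 0 lower, and 0 of the 7 regulators and 0 of the 10 counterparts and carriers were called by edgeR in either direction. The called gene was Pcx, pyruvate carboxylase, which is abundant in astrocytes, with a log2 change of 0.70 (SE 0.19, adjusted p = 0.0285 in edgeR). Sdha, the flavoprotein of succinate dehydrogenase, had 0.56 (edgeR adjusted p = 0.00616) and Got1, the cytosolic aspartate aminotransferase, −0.58 (edgeR adjusted p = 0.00419), both just under 1.5-fold. The call of Pcx was lost without any 1 of the 4 WT Ctrl libraries, at edgeR adjusted p of 0.0567 to 0.124. Sdha passed both thresholds in 5 of its 10 alternatives, DESeq2, RLE scaling, its 4 libraries alone, and without soma or neurite replicate 1 (log2 0.60 to 0.68), and Got1 in 2 of 10, with no filter on low counts (log2 −0.61) and without neurite replicate 1 (log2 −0.59). After KCl none of the genes of these 3 lists was called by edgeR between neurites and soma, and of the 3 lists only Pdk4, a kinase that inhibits pyruvate dehydrogenase, passed 2-fold in the KCl response of soma (log2 1.61, edgeR adjusted p = 0.00734). In the change of neurite enrichment with Mettl3 KO, Sdhc (0.78), Mpc1 (0.99) and Mpc2 (1.31) passed upwards at unadjusted edgeR p of 0.0280, 0.0481 and 0.0465. Pdk4 lost its call without either WT Ctrl soma replicate (edgeR adjusted p = 0.0868 and 0.0629), and the other 3 without either WT Ctrl insert. These last 4 were named after their values were seen. A list of respiratory chain genes was picked by symbol and included ATP synthase and succinate dehydrogenase, so Sdha and Sdhc were in it too. In WT Ctrl, 37 of its 92 genes were called higher in neurites and 0 lower, beside 9.01% and 4.54% of all genes. The number called changed when single libraries were left out. In the Mettl3 KO change of neurite enrichment, 80 of the 92 had a value above 0, with a median log2 change of 1.36, and 9 passed upwards and 0 downwards, beside 2.91% and 1.28% of all genes. That count was 82 (75 upwards and 7 downwards) without Mettl3 KO Ctrl insert 1, 2 without insert 2, 0 without either WT Ctrl insert, and 53 by DESeq2. With all 16 libraries in 1 fit, no gene was called in either WT comparison of neurites with soma.

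Across the 8 WT RNA-seq libraries, the protein-coding genes whose log2 CPM followed Ogdh most closely were Smim14 (Pearson r = 0.97), Pcdh11x (0.95), Mlip (0.95), Hdac6 (0.94) and Cabp1 (0.92), among 12335 genes whose mean count was 100 or more. Among the other 8 members, Cs was the closest with r = 0.60 (rank 996), Mdh2 followed with 0.47, and Dlst was the farthest with −0.74. The 8 libraries are 4 groups of 2 and share compartments, treatments and inserts, so these values describe the likeness of patterns and carry no p.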

How the data were processed

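RNA-seq reads were aligned to mm10 by the authors with STAR 2.7.7a and fragments were counted with featureCounts 2.0.1 (Ensembl release 97, multi-mapping reads included, strand not used; the kit does not mark strand). The deposited count table holds whole-number counts per gene, without normalization. The deposited DART-seq score table holds the authors' score of each RNA, in WT, Mettl3 KO, soma and neurites, with the number of sites as a count. The site list holds a C-to-U fraction per site, taken here as the authors' average over WT libraries. Columns of the authors' own comparisons (log2 fold changes, Wald statistics and p-values of DESeq2 and of a binomial model) were not used, other than the gene names beside them.

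Counts were fitted in edgeR 4.0.16 (R 4.3.3) with TMM scaling and the two-sided quasi-likelihood test, and p-values were adjusted by Benjamini-Hochberg across every gene in the fit. The 8 libraries of a genotype entered 1 fit, or all 16 for comparisons of genotypes. Genes with a mean count under 10 in the compared libraries were dropped, as were the 37 genes of the mitochondrial genome. Changes in neurite enrichment had 1 term per insert, taken from the replicate number; the tool of the study's methods for them was not used here. The study's methods give the KCl response for soma only. Thresholds were those of the study's methods. The fits were tested on simulated counts. Alternatives were DESeq2 1.42.0, RLE scaling, no filter, other sets of libraries, the replicate block, an adjusted p, and each replicate or insert left out. Per the study's methods, replicates came from distinct litters, and control and KCl neurons shared a litter. CPM was scaled over the 8 libraries of a genotype unless stated.

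Sites were placed on the main transcript of each gene in GENCODE M21 (GRCm38), which is close to but not the authors' release. BLAST 2.17.0 found no transcript of another gene at 95% identity or more over at least 100 bases, and of the exon bases only 5 of 3422 of Idh3b are shared, with Nop56 on the opposite strand.

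The members and gene lists were chosen with earlier results of these data known. Named in the text are the 9 members, Mettl3, the 4 pathway genes with the smallest p in WT Ctrl neurite enrichment (1 of them is not reported here), the 5 genes most like Ogdh, and genes marked as chosen after their values were seen.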

Additional observations from a re-analysis of the deposited data

Results flagged for a closer look

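For 3 results, both samples or the fitted values of a pair of groups lay on opposite sides of 0, and in each the difference was not tested. The log2 neurite over soma ratio of Idh3g was −0.80 and −0.24 in the WT KCl inserts and 0.08 and 0.12 in the KCl-treated Mettl3 KO inserts, a difference of means of 0.6211. That of Ogdh was 0.24 and 0.56 in the Mettl3 KO Ctrl inserts and −0.07 and −0.04 in the KCl-treated ones, a difference of −0.4588. In both, and in the Mettl3 KO soma values of Cs given next, KCl-treated Mettl3 KO insert 1 held the high glial and low neuronal markers. Their part was not tested. The log2 level of Cs after KCl against Ctrl was 0.06 in WT soma and −0.34 in Mettl3 KO soma, a difference of −0.408. It measured 214 and 228 CPM in WT Ctrl soma and 231 in both WT KCl soma libraries, and 193 and 249 in Mettl3 KO Ctrl soma and 173 in both KCl-treated ones, so the KCl and Ctrl libraries overlapped in neither genotype.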

How the results depend on the processing

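The number of the 9 mRNAs called stayed at 0 in 101 of 103 alternatives over the 10 RNA-seq comparisons. With 1 replicate left out it ranged from 0 to 1 for WT KCl neurites over soma (1, Idh3g lower, without WT soma KCl replicate 2) and from 0 to 1 for the Mettl3 KO change in neurite enrichment (1, Fh1 lower, without Mettl3 KO Ctrl insert 1), and was 0 elsewhere. At 2-fold in place of 1.5-fold, 0 in place of 5 mRNAs had a higher DART-seq score in neurites. Of 244 log2 changes of members under an alternative, 12 changed sign, none of them called. These cover all 9 members only in WT Ctrl neurites over soma, and selected members in each other comparison. Cs in WT Ctrl neurites over soma was −0.023 without a filter on low counts. Ogdh in WT KCl was 0.023 in its 4 libraries alone and ranged from −0.042 to 0.044 with 1 replicate left out. Ogdh in KCl-treated Mettl3 KO neurites over soma was 0.022 with all 16 libraries, 0.0083 in its 4 libraries alone, 0.044 without KCl-treated Mettl3 KO insert 1, and −0.40 to 0.30 with 1 replicate left out. Over the same omissions, Ogdh in Mettl3 KO Ctrl soma ranged from −0.68 to 0.023, its Mettl3 KO change in neurite enrichment from −0.088 to 0.28, and that of Fh1 from −0.82 to 0.35. The causes were not tested.

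Per the study's methods, soma and neurites of an insert were kept as a pair, but nothing in the labels ties a replicate number to an insert; the terms per insert and the ratios per insert rest on reading it so. Between soma and neurites of a condition, the difference between replicates correlated at −0.14 (WT Ctrl), 0.01 (WT KCl), 0.07 (Mettl3 KO Ctrl) and 0.90 (Mettl3 KO KCl) over 15170 genes, so the values show this pairing clearly in Mettl3 KO KCl only, and comparisons other than the changes in neurite enrichment were fitted without it. With a replicate block, or without it where the comparison had it, 0 of the 9 were called in every comparison, and among all genes the block gave 1918 higher and 927 lower in WT Ctrl neurites, against 2091 and 1054. Without the block, the Mettl3 KO change in neurite enrichment held 135 genes higher and 161 lower, against 668 and 294.

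Counts over all genes moved more. With all 16 libraries in 1 fit, 0 genes were called in either WT comparison of neurites with soma, and the KCl response fell to 320 higher and 21 lower in soma (899 and 712) and to 240 and 23 in neurites (734 and 375). In Mettl3 KO soma and neurites against WT, DESeq2 called 188 higher and 225 lower, and 115 and 198, where edgeR called 15 and 29, and 14 and 27; without KCl-treated Mettl3 KO insert 1, edgeR called 123 and 296, and 77 and 193. Adjusting p left 0 genes in both changes of neurite enrichment. With 2 libraries in a group, and with the spread of Mettl3 KO, most of the members' intervals between genotypes held a 1.5-fold difference.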
